A study of Mus musculus with 8 samples.

Results

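The 9 genes described here handle cholesterol that the liver exchanges with high-density lipoprotein (HDL) and other lipoproteins, and were chosen by symbol from the 25124 gene rows of the expression table. They comprise a receptor for HDL (Scarb1), a remnant receptor (Lrp1), 2 secreted lipases (Lipc and Lipg), 2 plasma proteins that remodel HDL (Lcat and Pltp), 2 sterol exporters (Abca1 and Abcg1) and an intracellular esterifying enzyme (Soat2). In the RNA-seq, C57BL/6 mice labelled WT were given either vehicle or 30 mg/kg of GW4064, a synthetic agonist of the bile acid receptor FXR, after an overnight fast, and livers were taken 1 h later. Each RNA-seq library pooled the RNA of 2 livers, which gave 2 libraries per treatment from separate mice. In the GRO-seq, which sequences RNA that polymerases extend in isolated nuclei, there was 1 library for each combination of genotype (labelled WT or FXR KO) and treatment at the same time point. The vehicle is DMSO in the labels and corn oil in the Materials and methods, and the injection was intraperitoneal. The mice of the GRO-seq are described by the study as male Fxr-Flox and Fxr-LKO (liver-specific knockout) animals, both carrying the floxed allele. The latter carry Cre under the albumin promoter, which is active in hepatocytes, and which other liver cells kept the gene was not checked here. Ages were not given in the sources used here.

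HDL is assembled when Abca1 passes cholesterol and phospholipid to apolipoprotein A-I, matures as Lcat esterifies its cholesterol, and returns cholesteryl ester to hepatocytes through Scarb1. Lipases on the vessel wall and phospholipid transfer by Pltp reshape the particles on the way. In liver, FXR responds to bile acids, the end products of this cholesterol traffic, and Abca1 and Abcg1 are classic targets of another sterol-sensing receptor, LXR.

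Promoter sequence was at hand for 5 of the 9 genes (RefSeq, GRCm38.p6): Abca1, Lipc, Lcat, Pltp and Lrp1. Scarb1, Abcg1, Lipg and Soat2 are named only. The 250 bases before the start site are shown for a lipase gene with higher RNA after GW4064 (Lipc), for the remnant receptor gene (Lrp1) and for the member with lower RNA whose groups lay furthest apart (Abca1), 5′ to 3′ on the minus strand. They lie at chr9:70934809-70935058 (Lipc), chr10:127621149-127621398 (Lrp1) and chr4:53159896-53160145 (Abca1). Capitals mark the nuclear receptor half-site AGGTCA or its complement TGACCT in Lipc, and TGACCNNNNNTAACC, the letters of the known LXR element of Abca1, in Abca1.
Lipc: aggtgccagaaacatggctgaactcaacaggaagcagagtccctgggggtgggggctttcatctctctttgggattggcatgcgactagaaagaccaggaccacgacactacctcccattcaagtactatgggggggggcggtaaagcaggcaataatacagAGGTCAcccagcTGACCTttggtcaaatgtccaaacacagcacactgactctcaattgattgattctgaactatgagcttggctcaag
Lrp1: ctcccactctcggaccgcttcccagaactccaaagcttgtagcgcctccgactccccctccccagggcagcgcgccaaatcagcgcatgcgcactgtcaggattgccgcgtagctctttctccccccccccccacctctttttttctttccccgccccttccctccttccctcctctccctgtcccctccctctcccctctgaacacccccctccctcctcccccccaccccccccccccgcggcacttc
Abca1: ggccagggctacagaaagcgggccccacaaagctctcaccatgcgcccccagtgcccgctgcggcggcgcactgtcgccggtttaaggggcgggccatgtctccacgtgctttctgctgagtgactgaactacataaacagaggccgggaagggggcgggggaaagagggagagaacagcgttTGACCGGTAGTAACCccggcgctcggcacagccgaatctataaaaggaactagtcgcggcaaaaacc
The search covered both strands of 300 bases, from 250 before to 50 after the start. The Lipc window held 2 half-sites, beginning at −88 and −76 from the start. At least 1 was present in 16.3% of 32851 promoters, and the share with 2 or more was not counted. The Abca1 window held TGACCNNNNNTAACC at −67 and no half-site. Those letters were taken from the Abca1 element itself, so this match was fixed before the search. Of all promoters, 0.0487% held them. The windows of Lrp1, Lcat and Pltp held none of the motifs searched, nor did that of a second Lipc start further upstream. The inverted repeat GGTCANTGACC (0.0396% of promoters) and the direct repeat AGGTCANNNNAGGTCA (0.0152%) were in no member's window.

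Levels are in RPKM, reads scaled to gene length and library depth, and each row spans the whole gene with its introns, so a value mixes unspliced and mature RNA. Exons (GENCODE) made up 1.4% of the Lipc row, 3.9% of Scarb1 and 34.8% of Lcat, with the others between these. In vehicle RNA-seq, Lcat was highest at a mean of 25.0 RPKM and was followed by Lrp1 at 11.0, Abca1 at 4.36, Scarb1 at 3.64, Lipg at 3.46, Soat2 at 3.10, Lipc at 2.52, Pltp at 1.70 and Abcg1 at 0.598. The libraries of Scarb1 and Lipg overlapped, as did those of Lipg and Soat2, and all other neighbours in this order were separate. Nascent RNA of the WT vehicle library gave the same order except that Lipg (2.84 RPKM) stood above Scarb1 (2.59 RPKM).

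**Figure D1:**
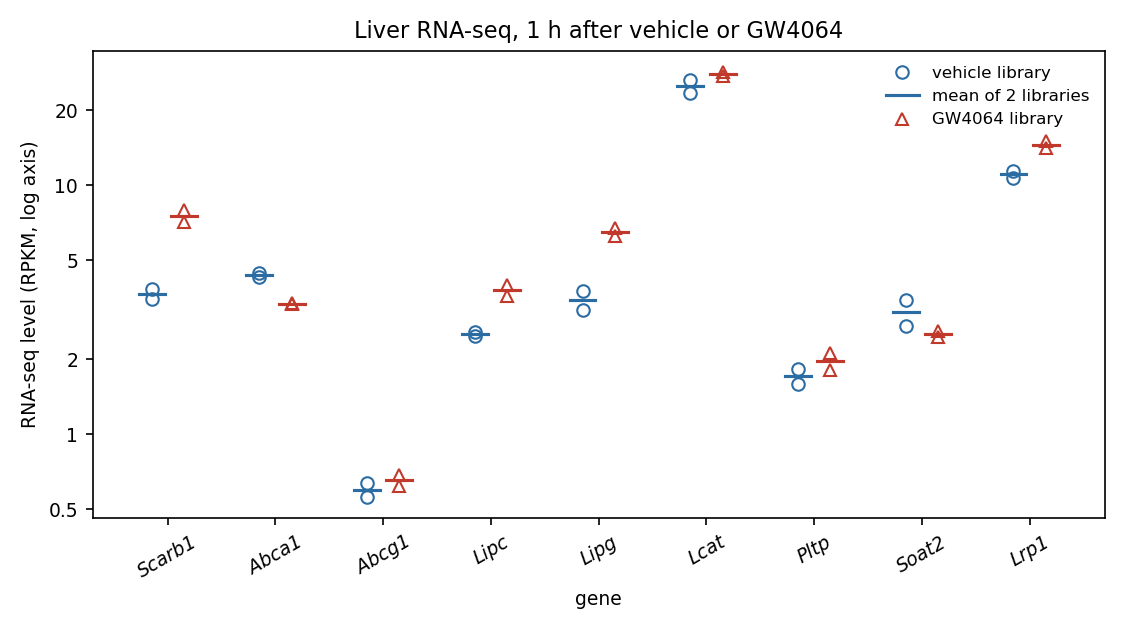
RNA-seq level of each gene (RPKM, log axis) in the 2 vehicle and 2 GW4064 libraries, with points for libraries and short lines for the mean of 2. The GW4064 libraries lie above the vehicle libraries for Scarb1, Lipg, Lipc, Lrp1 and Lcat, below them for Abca1 and Soat2, and among them for Pltp and Abcg1.

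Depth was even in RNA-seq, at 13924462 to 14047230 rebuilt reads per library, and uneven in GRO-seq, at 10593323 and 14173746 reads for WT and 5069398 and 5141672 for FXR KO. Nr1h4, which encodes FXR, measured 9.09 and 9.38 RPKM in vehicle and 3.90 and 3.72 RPKM in GW4064 RNA-seq (adjusted p = 0.0149, limma). In GRO-seq it stood at 15.1 and 4.23 RPKM in the WT vehicle and GW4064 libraries and at 16.7 and 20.6 RPKM in the libraries labelled FXR KO. This row covers the whole gene and does not check the deletion. Hepatocyte markers summed to 385.6 to 387.8 RPKM in vehicle and 365.1 to 413.8 RPKM in GW4064 RNA-seq. Kupffer cell markers summed to 23.9 to 26.5 and 25.6 to 26.5 RPKM, endothelial markers to 26.0 to 26.1 and 26.4 to 27.1, and blood cell markers to 59.9 to 61.5 and 63.1 to 70.7. Stellate cell markers summed to 15.9 to 16.9 and 16.5 to 18.9 RPKM and cholangiocyte markers to 5.26 to 6.37 and 4.26 to 8.11. Of the 38 markers tested, limma called 0, where it called 2.13% of all genes higher and 1.15% lower. At an unadjusted p under 0.05, 4 were higher and 2 lower, where 10.6% of all genes were higher and 10.6% lower. Limma-voom called Fabp1 higher and Ttr lower, against 4.58% and 4.22% of all genes.

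Of the 9 genes, Scarb1, Lipg and Lipc rose with GW4064 and 0 fell at an adjusted p under 0.05 in limma, with 4 higher and 1 lower at an unadjusted p under 0.05. Of all 11408 genes tested, 2.13% rose and 1.15% fell at the adjusted threshold, and 10.6% were higher and 10.6% lower at the unadjusted one. The median log2 change was 0.194 over the members and -0.003 over all genes. Limma-voom on reads rebuilt from the RPKM called 4 members higher, adding Lrp1, and Abca1 lower, against 4.58% and 4.22% of all genes. Both GW4064 libraries lay above both vehicle libraries for 5 members and below them for 2, against 26.0% and 28.1% of all genes. In bulk liver, fewer cells of a type and less RNA per cell cannot be told apart.

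Scarb1 encodes SR-BI, the HDL receptor that takes up cholesteryl ester selectively (mm10 chr5:125277087-125341094, minus strand, 13 exons). It measured 3.81 and 3.48 RPKM in the vehicle libraries and 7.92 and 7.10 RPKM in the GW4064 libraries. The groups were separate, and the higher vehicle library was far under the lower GW4064 library. The change was 2.03-fold (95% interval 1.71 to 2.41, adjusted p = 0.0266, limma) and was the largest of the 9. Nascent RNA was 2.59 RPKM in the WT vehicle library and 8.32 RPKM in the WT GW4064 library, and 2.86 and 1.83 RPKM in the corresponding FXR KO libraries. The ratio was thus 3.22-fold in WT (counting interval 3.07 to 3.38) and 0.641-fold in FXR KO (0.577 to 0.711), in opposite directions.

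Lrp1, a large endocytic receptor for remnant lipoproteins (mm10 chr10:127538158-127621148, minus strand, 89 exons), measured 11.4 and 10.7 RPKM with vehicle and 14.99 and 14.03 RPKM with GW4064. The groups were separate, yet the 1.31-fold difference (1.15 to 1.5) missed the threshold in limma (adjusted p = 0.0852) and passed it in limma-voom (adjusted p = 0.0351), though in none of the limma-voom fits without 1 library (adjusted p 0.102 to 0.198). Nascent RNA in WT was 7.14 RPKM with vehicle and 14.8 RPKM with GW4064, 2.07-fold (2.01 to 2.12). In FXR KO it was 6.14 and 6.62 RPKM, 1.08-fold (1.02 to 1.14). Its promoter, shown above, held no half-site.

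Lipc encodes hepatic lipase, which hydrolyses HDL phospholipid and remnant triglyceride (mm10 chr9:70798128-70934808, minus strand, 9 exons). It measured 2.58 and 2.47 RPKM with vehicle and 3.97 and 3.60 RPKM with GW4064, in separate groups. The change was 1.48-fold (1.29 to 1.70, adjusted p = 0.0490, limma). Nascent RNA was 1.83 and 3.28 RPKM in WT, 1.80-fold with GW4064 (1.72 to 1.88), and 1.23 and 0.986 RPKM in FXR KO, 0.804-fold (0.726 to 0.890). Both FXR KO libraries stood below the WT vehicle library.

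Lipg encodes endothelial lipase, which acts mainly on HDL phospholipid (mm10 chr18:74939322-74961263, minus strand, 10 exons). It measured 3.75 and 3.16 RPKM with vehicle and 6.75 and 6.26 RPKM with GW4064. The groups were separate, and the change was 1.86-fold (1.52 to 2.29, adjusted p = 0.0429, limma). Nascent RNA was 2.84 and 4.46 RPKM in WT, 1.57-fold (1.44 to 1.72), and 1.21 and 2.42 RPKM in FXR KO, 1.99-fold (1.62 to 2.46). Lipg was the 1 member past 1.5-fold higher in the libraries labelled FXR KO, where its values rest on 137 and 269 reads. Summed endothelial markers in GRO-seq were 15.3 and 18.7 RPKM in WT and 16.3 and 14.2 RPKM in FXR KO, with vehicle first, and their part in the result was not tested.

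These 3 calls depended on all 4 libraries in limma. Without any 1 of them, the adjusted p was 0.123 to 0.154 for Scarb1, 0.115 to 0.190 for Lipg and 0.148 to 0.252 for Lipc, and limma then called 43 genes in all without vehicle replicate 1 and 0 without any of the others. In limma-voom, Scarb1 and Lipg were past the threshold except without vehicle replicate 2 (adjusted p = 0.0617 and 0.0645), and Lipc except without vehicle replicate 1 (0.0842) or 2 (0.118).

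Abca1, which loads cholesterol onto apolipoprotein A-I (mm10 chr4:53030789-53159895, minus strand, 50 exons), measured 4.28 and 4.45 RPKM with vehicle and 3.35 and 3.32 RPKM with GW4064. Vehicle and GW4064 libraries were separate and close within each group. The 0.770-fold difference (0.694 to 0.854) missed the threshold in limma (adjusted p = 0.0582) and passed it in limma-voom (adjusted p = 0.0191), though in none of the limma-voom fits without 1 library (adjusted p 0.0811 to 0.148). Nascent RNA was 3.72 and 2.37 RPKM in WT, 0.637-fold with GW4064 (0.610 to 0.664), and 3.34 and 3.98 RPKM in FXR KO, 1.19-fold (1.13 to 1.26). Nr1h3 and Nr1h2, the LXR genes, and the LXR target Mylip all missed the threshold in limma, and LXR activity was not tested.

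Abcg1, which exports sterol to mature HDL (mm10 chr17:31057694-31117981, plus strand, 15 exons), was the lowest member, at 0.561 and 0.635 RPKM with vehicle and 0.685 and 0.620 RPKM with GW4064. The groups overlapped, and the interval of the fold was 0.861 to 1.35 (adjusted p = 0.643, limma). Nascent RNA was 0.249 to 0.324 RPKM over the 4 libraries, under the minimum mean of 0.5 RPKM, so Abcg1 is in no GRO-seq count.

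Lcat, secreted by hepatocytes to esterify HDL cholesterol (mm10 chr8:105939551-105943402, minus strand, 6 exons), measured 26.5 and 23.4 RPKM with vehicle and 27.4 and 28.4 RPKM with GW4064. The groups were separate, but the vehicle libraries differed from each other by more than the groups' nearest libraries. The 1.12-fold difference (0.95 to 1.32) missed the threshold (adjusted p = 0.366, limma). Nascent RNA was 16.8 and 23.97 RPKM in WT, 1.43-fold (1.30 to 1.56), and 21.9 and 21.8 RPKM in FXR KO, 0.996-fold (0.869 to 1.14). Lcat was the member nearest below 1.5-fold in WT.

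Pltp, the phospholipid transfer protein (mm10 chr2:164839518-164857708, minus strand, 16 exons), measured 1.82 and 1.59 RPKM with vehicle and 1.82 and 2.12 RPKM with GW4064, in overlapping groups (1.14-fold, 0.922 to 1.42, adjusted p = 0.403, limma). Its row shares 1515 bases, 8.33% of its length, with Ctsa on the other strand, which is the only gene overlapping a member, and the strand setting of the counting was not given. Nascent RNA was 1.07 and 1.33 RPKM in WT (1.24-fold, 1.04 to 1.47) and 1.11 and 1.06 RPKM in FXR KO (0.956-fold, 0.718 to 1.27).

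Soat2, which esterifies cholesterol in the hepatocyte endoplasmic reticulum (mm10 chr15:102150575-102163436, plus strand, 15 exons), measured 2.72 and 3.47 RPKM with vehicle and 2.46 and 2.59 RPKM with GW4064. The groups were separate, but the vehicle libraries differed from each other by more than the groups' nearest libraries, and the 0.827-fold difference (0.637 to 1.07) missed the threshold (adjusted p = 0.347, limma). Nascent RNA was 2.22 and 2.14 RPKM in WT (0.967-fold, 0.829 to 1.13) and 2.15 and 1.70 RPKM in FXR KO (0.793-fold, 0.613 to 1.02).

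**Figure D2:**
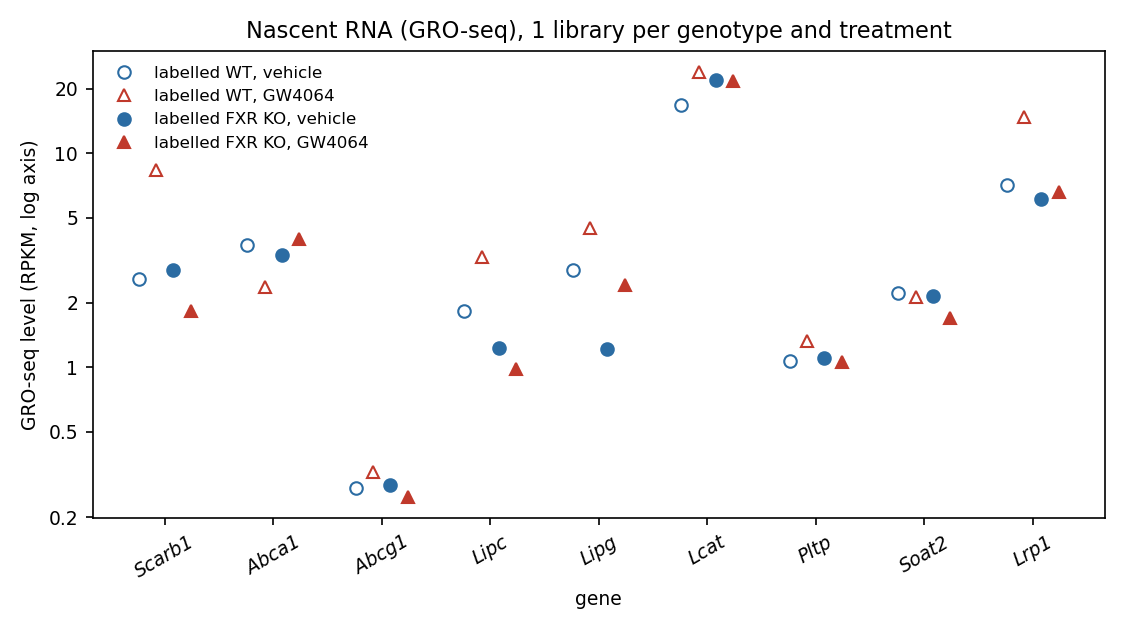
GRO-seq level of each gene (RPKM, log axis) in the 4 libraries, 1 per genotype and treatment, so no error can be shown. Scarb1 stands at 8.32 RPKM in the WT GW4064 library and between 1.83 and 2.86 RPKM in the other 3.

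Across the 8 members in the GRO-seq counts, 4 were at least 1.5-fold higher with GW4064 in WT (Scarb1, Lrp1, Lipc and Lipg) and 1 was lower (Abca1), after adding 0.1 RPKM. Of the 10169 genes counted, 6.10% were higher and 6.83% lower. In FXR KO 1 was higher (Lipg) and 1 lower (Scarb1), against 2.61% and 3.11% of genes. The median log2 ratio of the members was 0.573 in WT and -0.033 in FXR KO, and that of all genes was -0.094 and -0.024. With 1 library in each cell of the design, these ratios have no replicate check, and the intervals cover counting error only.

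Between genotypes under vehicle, 0 members were at least 1.5-fold higher in FXR KO and 1 was lower, Lipg at 0.428-fold of WT (0.355 to 0.513), against 5.83% and 5.77% of genes. Lipc stood at 0.672-fold (0.623 to 0.724). The other members in the counts lay between 0.859-fold (Lrp1) and 1.31-fold (Lcat). Under GW4064, Abca1 was higher in FXR KO at 1.68-fold (1.6 to 1.77), and Scarb1 (0.220-fold), Lipc (0.301-fold), Lrp1 (0.448-fold) and Lipg (0.543-fold) were lower, against 6.46% and 7.74% of genes. The comparisons share libraries with those by treatment. Summed hepatocyte markers were 560.0 and 630.6 RPKM in the WT libraries and 944.0 and 901.3 RPKM in the FXR KO libraries, with vehicle first. Alb and Apoa1 made up most of each sum. Single markers in FXR KO over WT ran from 0.893-fold (Hnf4a) to 2.43-fold (Apoa1) under vehicle. Under GW4064 they ran from 0.753-fold (Tat) to 1.95-fold (Apoa1). The part of these markers in the genotype differences was not tested.

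**Figure D3:**
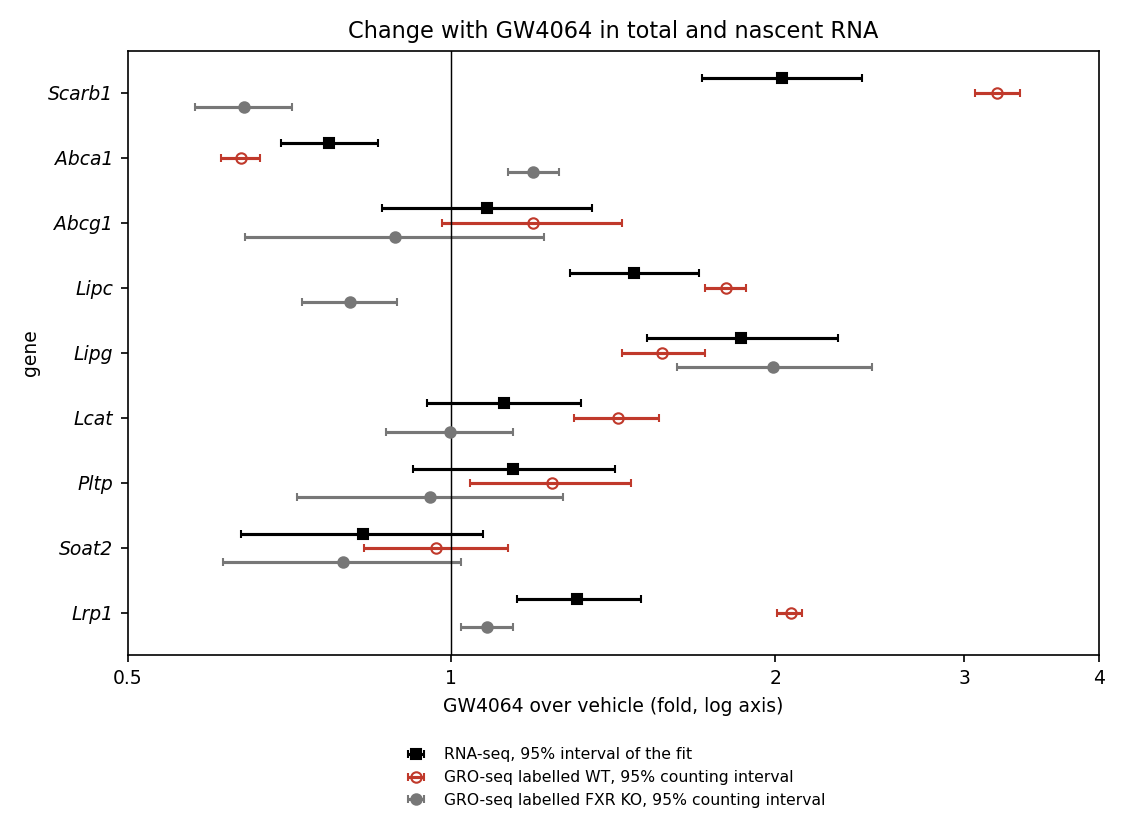
Fold of GW4064 over vehicle (log axis) for each gene in RNA-seq, with the 95% interval of the limma fit, and in the WT and FXR KO GRO-seq, with 95% counting intervals. Scarb1, Lipc, Lrp1 and Lipg lie above 1 in RNA-seq and WT GRO-seq, Abca1 lies below 1 in both, and in FXR KO Lipg stands near 2-fold while Scarb1 and Lipc lie below 1.

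Over all 8 libraries, with each gene centred on the mean of its assay on the log2 scale, Lcat and Pltp had the most alike patterns among the members (Euclidean distance 0.321) and Scarb1 and Abca1 the least alike (2.57). Among 6449 candidate genes, the nearest to Scarb1 were Slc8b1 (0.153), Slc17a4 (0.304) and Tm4sf4 (0.336). Slc8b1 had a log2 change of 0.98 in RNA-seq (adjusted p = 0.0266, limma), 1.79 in WT GRO-seq and -0.75 in FXR KO. The nearest to Lipc were Snx33 (0.262), Zfhx2 (0.288) and Rsad1 (0.295), and the nearest to Lipg were Zpr1 (0.383), Pkdrej (0.435) and Ier2 (0.469). In RNA-seq, Zfhx2, Rsad1 and Zpr1 missed the threshold (adjusted p = 0.196, 0.106 and 0.0999, limma), and Snx33, Pkdrej and Ier2 passed it. These distances are descriptions, and the points share libraries.

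Of 38 other genes of lipoprotein and sterol handling, 34 were tested, and 3 rose, 0 fell and 31 missed the threshold in limma, against 2.13% and 1.15% of all genes that rose and fell. At an unadjusted p under 0.05, 7 were higher and 2 lower, against 10.6% and 10.6% of all genes. Limma-voom called 4 higher and 1 lower, against 4.58% and 4.22%. The median log2 change over the 34 was 0.035. Abcg5, a biliary sterol exporter, measured 4.24 and 4.72 RPKM with vehicle and 7.32 and 7.15 RPKM with GW4064 (1.6-fold, adjusted p = 0.0386, limma), and its row shares 6710 bases with Abcg8 on the other strand. Gramd1c, which encodes a carrier of plasma membrane sterol to the endoplasmic reticulum, measured 1.83 and 1.56 RPKM with vehicle and 4.34 and 3.98 RPKM with GW4064 (2.38-fold, adjusted p = 0.0254, limma). Abcg5 and Gramd1c were 2 of 9 tested genes of sterol transport, against the same 2.13% of all genes. Both calls were lost in limma without vehicle replicate 2 or either GW4064 library, where it called 0 genes in all.

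In WT GRO-seq, Abcg5 was 1.56-fold higher with GW4064 and Gramd1c 2.75-fold (2.54 to 2.97). In FXR KO the ratios were 1.18-fold and 0.686-fold (0.539 to 0.870). Of the roles with no call in limma, the gene with the smallest p was Lipa, lysosomal acid lipase, among 2 tested genes of ester formation and hydrolysis (1.25-fold, adjusted p = 0.0671), Angptl8, which takes part in inhibiting lipoprotein lipase, among 9 of lipase control (1.56-fold, 0.109), and Apom among 4 HDL apolipoproteins (1.08-fold, 0.437). Among the LXR genes and Mylip, it was Mylip (0.981-fold, 0.788). Limma-voom added Lipa higher (adjusted p = 0.0181) and Npc1 lower (adjusted p = 0.0318). The Angptl8 row lies wholly inside that of Dock6 on the other strand.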

How the data were processed

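Values are RPKM that the authors computed with HOMER after mapping reads to mm10 with STAR 2.7.3a, with bcl2fastq and FastQC also in the submitters' processing notes. Row length matched the span from start to end in 24932 of 25124 deposited rows, which therefore count introns. The library kit is a stranded TruSeq kit in the labels and Kapa HyperPrep after rRNA removal in the methods, and the strand setting of the counting was not given in the sources used here. The study's text gives 2 mice per GRO-seq group, for which 1 column each was deposited.

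RNA-seq genes whose mean over 4 libraries reached 0.5 RPKM were fitted with limma 3.58.1 (R 4.3.3; lmFit, eBayes with trend=TRUE) on log2(RPKM + 0.1), with treatment as the only term and Benjamini-Hochberg adjustment over all genes tested. A fold change on this scale understates the change of low genes. Tests were two-sided, and n = 2 libraries per treatment. Exons came from GENCODE vM21 and promoters from RefSeq. GRO-seq has 1 library per group and no test: log2 ratios were taken after adding 0.1 RPKM, over genes whose mean reached 0.5 RPKM, counting a gene where either library of the pair held 20 reads or more, and plain folds carry 95% exact binomial intervals, which cover counting error only. Reads were rebuilt from RPKM, row length and library totals. Where rounding of the RPKM was worth under 0.15 reads, nearly all values came within 0.15 reads of a whole number. Longer rows, those of Scarb1, Abca1, Lipc and Lrp1 among them, could not be checked in this way. The scripts were tested on simulated data. Other steps used scipy 1.17.1, pandas 2.3.3 and numpy 2.4.6 under Python 3.11.15, with matplotlib 3.10.9 for plots.

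The genes and lists were chosen with earlier results of these data known. Named genes are the 9 members, Nr1h4, pathway genes past the threshold, the gene of smallest p in each role, and the 3 genes nearest in pattern to each member called, taken from genes averaging 1 RPKM or more in each assay with rows of at least 300 bases (predicted genes, RIKEN clones and small RNAs left out). A pathway gene that met this rule is not reported here, though the counts include it. Npc1, Nr1h2, Nr1h3, Fabp1, Ttr, Alb, Apoa1, Hnf4a and Tat were named after their values were seen. Alternatives were other added values and filters, quantile normalization, median centring, other eBayes settings, a replicate block, rows of at least 300 bases, limma-voom on rebuilt reads and leaving out each library. RNA-seq of livers with Fincor knockdown and eRNA regions were not analysed here.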

Additional observations from a re-analysis of the deposited data

Results flagged for a closer look

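For 5 of the 8 members in the GRO-seq counts, the log2 ratio of GW4064 to vehicle had opposite signs in the libraries labelled WT and FXR KO. The share of all genes with opposite signs was not counted, so the 5 cannot be read as a trait of these members. Abcg1, which is outside the counts, also did (0.185 and -0.127). Each ratio rests on 1 library per group, so the difference between genotypes was not tested. WT minus FXR KO was 2.26 for Scarb1 (1.65 in WT and -0.61 in FXR KO), 1.10 for Lipc (0.81 and -0.29) and -0.88 for Abca1 (-0.63 and 0.25). It was 0.52 for Lcat, whose FXR KO ratio was -0.006, and 0.34 for Pltp, whose FXR KO ratio was -0.06. The counting intervals of the FXR KO folds of Lcat and Pltp include 1. With median centring the FXR KO ratio of Lcat was 0.033, of the same sign as in WT. Soat2 then had opposite signs, at 0.048 in WT and -0.278 in FXR KO.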

How the results depend on the processing

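The number of members that rose in RNA-seq, 3 as reported, was 0 without a filter on low values, 1 with quantile normalization and 1 with trend=FALSE. It was 2 to 4 with the other added values, the stricter filter, median centring, robust=TRUE, rows of at least 300 bases and limma-voom. Of all genes, 243 of 11408 rose as reported, 179 of 25124 without a filter, 219 with quantile normalization and 191 with trend=FALSE. With the other settings named, 226 to 522 rose. The number of members that fell, 0 as reported, was 1 (Abca1) with a filter at 1 RPKM, robust=TRUE, rows of at least 300 bases and limma-voom. Of all genes, 131 fell as reported and 157 to 481 in these settings. Leaving out each library gave 0 to 0 members higher in limma and 0 to 3 in limma-voom, and 0 to 0 lower in both, and the lone library of an arm was then assumed to vary like the other group. No member's direction reversed under these settings.

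The labels give both treatments replicate numbers 1 and 2, but nothing says that a number marks a shared day or litter. The deviations of same-numbered libraries had a correlation of -0.022 over 11408 genes, so no shared deviation was seen over genes at large. A shared effect on part of the genes was not tested. With the number as a replicate block, limma called 0 members higher and 0 genes in all, with 2327 at an unadjusted p under 0.05. Limma-voom with the block called 4 members higher and 1 lower, against 552 higher and 511 lower of all 11408 genes. The limma-voom fits with the block and without each library were chosen after seeing the data.

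In GRO-seq, the members past 1.5-fold in WT numbered 5, and 3 with 1 RPKM added or 2 at 2-fold. In FXR KO they numbered 2, and 1 with 1 RPKM added, 1 with median centring and 0 at 2-fold. Between genotypes under GW4064 they numbered 5, and 4 with 1 RPKM added (Abca1 was then out) and 3 at 2-fold. Median centring kept the WT count at 5, with Lcat in and Abca1 out. The shares of all genes under these alternatives are not given here, so a changed count cannot be set against them. The FXR KO libraries are the shallowest, and the intervals of Lipg, Pltp and Soat2 there are the widest after Abcg1.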
